A study of Mus musculus with 10 samples.

Results

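The genes described here are the nuclear genes of the mitochondrial respiratory chain and ATP synthase, read in primary keratinocytes of Sgpp1-/- and Sgpp1+/+ mice. A gene was a member if its mouse symbol began with Nduf, Uqcr, Cox4, Cox5, Cox6, Cox7, Cox8 or Atp5, or was Sdha, Sdhb, Sdhc or Sdhd, and if a probe set of the array was annotated to it alone. The brightest such probe set over the 10 arrays stood for the gene. This gave 90 members of 18193 genes: 42 for complex I, 4 for complex II, 8 for complex III, 19 for complex IV and 17 for ATP synthase. Of 115 genes in the gene table that fit the symbol rule, 8 had only probe sets shared with other genes, among them Ndufs6 and Ndufa11, and 17 were not analysed here.

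The disrupted gene, Sgpp1, codes for a phosphatase of the endoplasmic reticulum that dephosphorylates the signalling lipid sphingosine-1-phosphate. Both groups were keratinocytes, the epithelial cells of the epidermis, taken from skin and cultured at 0.05 mM calcium with 8% fetal calf serum over 3 to 4 days. The Sgpp1-/- group (KO) had 5 arrays, labelled KO 8, KO 9, KO 10, KO 21 and KO 23, and the Sgpp1+/+ group (WT) had 5, labelled WT 1 to WT 5. The labels do not give age, strain or the part of the gene that was disrupted, nor do they say that each array stands for its own animal or culture, and the p-values reflect only how far these samples scatter. All values are log2 signals of Affymetrix Mouse Genome 430 2.0 arrays, and a difference is the KO mean minus the WT mean on that scale.

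The respiratory chain is a set of protein complexes of the inner mitochondrial membrane. Complexes I and II take electrons from NADH and succinate, complex III passes them to cytochrome c, complex IV passes them to oxygen, and ATP synthase, also called complex V, uses the resulting proton gradient to make ATP. Most subunits are encoded in the nucleus and the remainder in mitochondrial DNA. In mouse epidermis, loss of mitochondrial respiration in keratinocytes has been found to disturb their differentiation.

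A few facts of the whole series bear on the members. Sgpp1 itself was not lower on the arrays labelled KO, where it read 8.46, 9.01, 8.69, 8.92 and 9.03, against 6.25, 7.82, 8.24, 8.33 and 7.70 in WT, so every direction rests on the labels alone. The basal keratinocyte markers averaged 10.41 to 10.95 in KO and 10.29 to 10.62 in WT, with 0 of 7 past the test. The differentiation markers averaged 9.69 to 10.20 in KO and 7.11 to 8.14 in WT, with 10 of 10 higher, and 2 of 6 measured proliferation markers, Mki67 and Prc1, were lower in KO. Fibroblast markers averaged 5.41 to 7.46 in KO and 5.36 to 8.92 in WT, melanocyte markers 8.14 to 9.73 in KO and 6.61 to 9.89 in WT, and myeloid markers 5.19 to 6.70 in KO and 5.20 to 6.80 in WT, with 0 genes of these 3 lists past the test at the adjusted threshold and 0 at an unadjusted p under 0.05. Markers of skeletal muscle, a tissue rich in mitochondria, averaged 3.36 to 3.93 in KO and 3.41 to 4.44 in WT, and Myh1, Myh4, Tnnt3 and Myog read at or under background. Of 5 adipocyte and brown fat markers, 1, Cidea, was higher in KO, and the endothelial list had 0 of 5 past the test, with averages of 3.34 to 3.95 in KO and 3.62 to 4.03 in WT. In bulk RNA, fewer cells of a type and less RNA per cell cannot be told apart. The labels also number the arrays, and each KO number is higher than each WT number. In a fit with this number as a covariate 0 genes and 0 members were called.

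Expression of the respiratory chain and ATP synthase genes differed little between the genotypes. In limma's fit over all 18193 genes, with Benjamini-Hochberg adjustment and a threshold of 0.05, 0 of the 90 members passed. The same fit called 482 genes, or 2.65% of all genes tested, of which 419 (2.30%) were higher and 63 (0.346%) lower in KO. At an unadjusted limma p under 0.05 there were 9 members, 4 higher and 5 lower in KO, which is 10% of the members, against 13.0% of all genes. In 0 of 90 members did the 5 KO values lie entirely above or below the 5 WT values, against 4.38% of all genes. The median difference was 0.05 over the members and -0.01 over all genes, and the members ran from -0.40 (Ndufs4) to 0.60 (Ndufa1), with 53 above 0 and 37 below.

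In the fit without covariates the intervals bounded most members. For 89 of the 90 members the 95% interval of the difference lay within a 2-fold change in either direction, against 88.3% of all genes. With the array number as a covariate this held for 27 of 90 members (30%), and the differences ran from -0.91 to 1.08. The exception without that covariate was Ndufa1, with an upper bound of 1.15 on the log2 scale. The standard error of a member's difference had a median of 0.19 and ran from 0.12 to 0.31, while the median over all genes was 0.18. A difference of at least 1 was seen in 0 members and in 431 genes overall (2.37%). By size alone, the median absolute difference was 0.12 over the members and 0.15 over all genes. Of the 90 members, 87 averaged above the highest background reading of 3.84, and 3, Ndufb4, Cox7a1 and Cox7b2, did not. The plot of differences by complex shows all 90 members with their intervals.

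**Figure D1:**
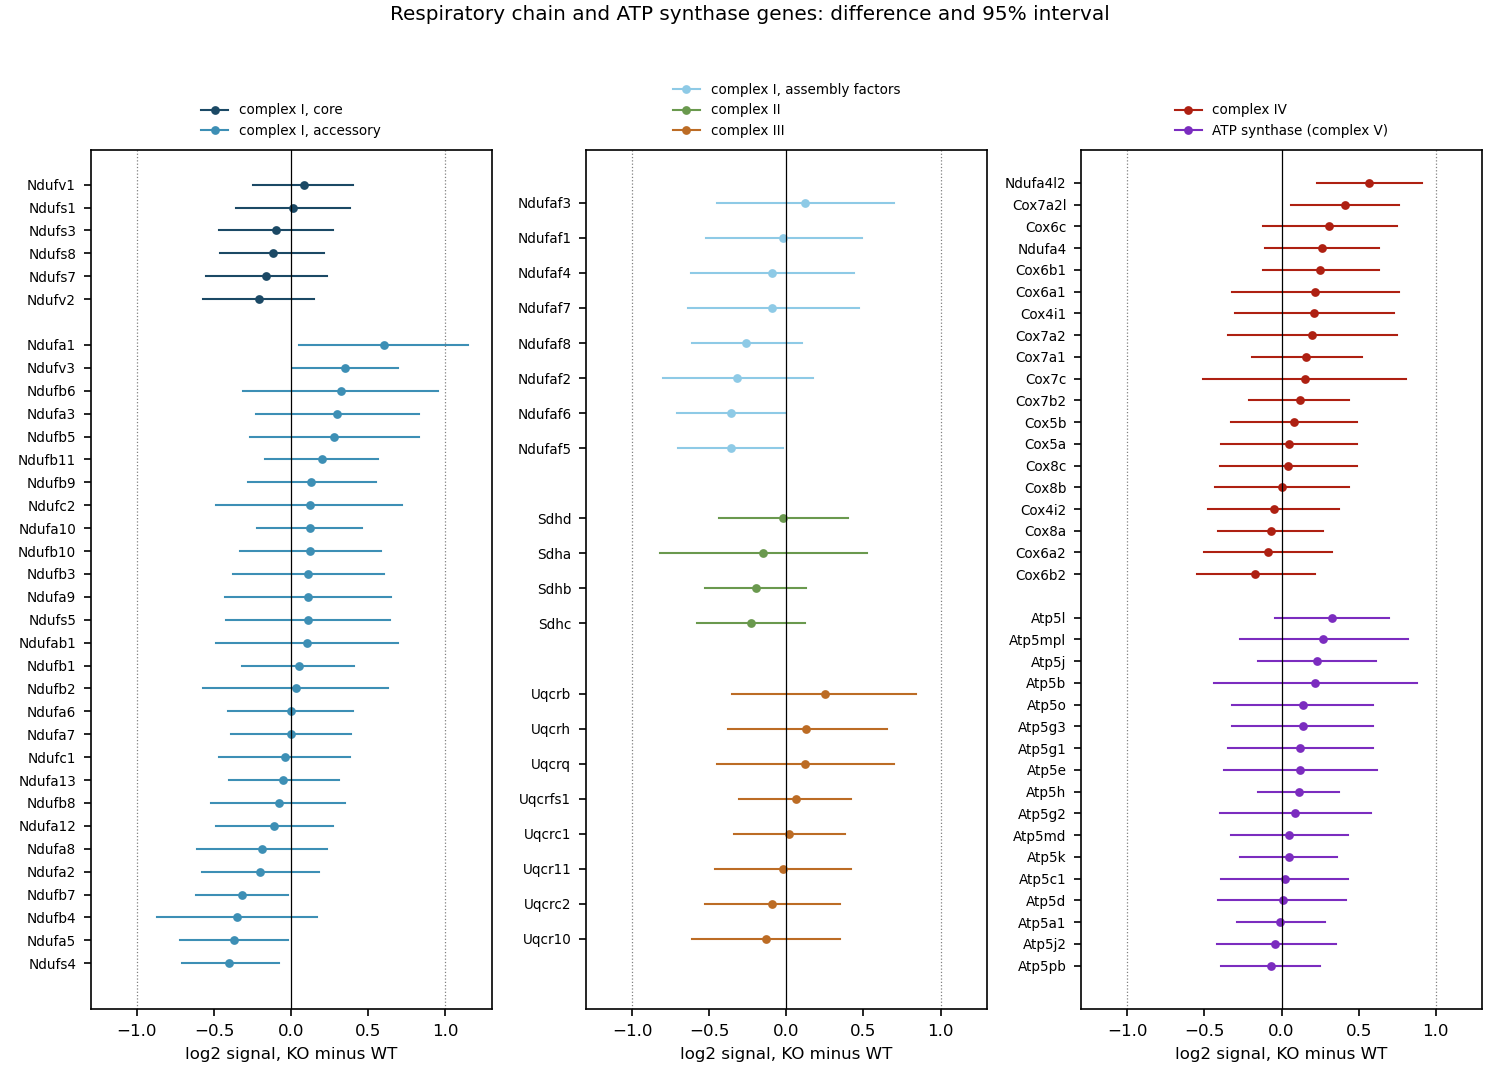
Difference in log2 signal, KO minus WT, for each of the 90 genes (points) with its 95% interval from limma (lines; 5 KO and 5 WT arrays), grouped and coloured by complex; dotted lines mark a 2-fold change in either direction. All points lie between -0.40 and 0.60, and the interval of 1 gene, Ndufa1, crosses a dotted line.

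The promoters of 3 members are printed because they carry the range of what was found: Ndufs4 had the largest negative difference, Ndufa1 the largest positive one, and Uqcr11, with a difference of -0.02, holds motifs of 2 of the 3 factors searched. The windows are from RefSeq on GRCm38.p6, 250 bases before to 50 bases after the annotated start, written 5′ to 3′ on the gene's strand, which is the minus strand for all 3. They lie at chr13:114388045-114388344 for Ndufs4, chrX:37191189-37191488 for Ndufa1 and chr10:80406772-80407071 for Uqcr11. Capitals mark letters that match one of 3 motifs on either strand: GCGCATGCG, the site of NRF1, CCGGAAG, the core of sites for GABPA (NRF2), and AAGATGGCG, a site of YY1. All 3 factors are known activators of respiratory genes.
Ndufs4: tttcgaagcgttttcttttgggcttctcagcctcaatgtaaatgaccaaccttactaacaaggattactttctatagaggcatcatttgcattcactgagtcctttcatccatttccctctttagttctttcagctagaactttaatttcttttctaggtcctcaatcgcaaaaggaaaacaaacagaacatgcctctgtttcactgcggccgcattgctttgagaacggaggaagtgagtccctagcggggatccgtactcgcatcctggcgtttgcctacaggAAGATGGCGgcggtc
Ndufa1: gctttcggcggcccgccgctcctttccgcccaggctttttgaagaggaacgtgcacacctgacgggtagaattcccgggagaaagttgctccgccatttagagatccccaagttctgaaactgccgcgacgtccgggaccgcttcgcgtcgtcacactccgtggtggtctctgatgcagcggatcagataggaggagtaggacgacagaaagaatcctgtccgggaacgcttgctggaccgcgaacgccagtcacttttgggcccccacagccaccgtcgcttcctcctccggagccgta
Uqcr11: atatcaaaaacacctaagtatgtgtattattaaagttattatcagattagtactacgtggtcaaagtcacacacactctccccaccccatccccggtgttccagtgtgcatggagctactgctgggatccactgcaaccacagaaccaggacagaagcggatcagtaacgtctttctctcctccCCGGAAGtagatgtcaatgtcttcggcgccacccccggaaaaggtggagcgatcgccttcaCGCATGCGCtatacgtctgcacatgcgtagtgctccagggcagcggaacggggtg

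In the Ndufs4 window the YY1 letters begin 35 bases after the start. In that of Uqcr11 the GABPA letters begin 66 bases before the start, and the NRF1 letters, on the opposite strand, begin 5 bases before it. The Ndufa1 window holds none of the 3. RefSeq windows were found for 74 of the 90 members, 79 windows in all, and were compared with all 32851 windows of the same 300 bases. The NRF1 letters occurred in 9 member windows (11.4%) and in 1.75% of all windows, those of GABPA in 19 (24.1%) and 8.86%, and those of YY1 in 7 (8.86%) and 1.4%. Other lengths of the same motifs gave other shares: GCGCATGC for NRF1 was in 13.9% of member windows and 2.71% of all, CCGGAAGT for GABPA in 6.33% and 3.89%, and AAGATGG for YY1 in 13.9% and 6.34%. The letters of GABPA and YY1 can overlap by AAG, and those of YY1 and NRF1 by GCG. At least 1 of the 3 motifs was present in 29 member windows (36.7%) and in 11.4% of all windows. Among the 9 members with an unadjusted p under 0.05, Ndufs4, Ndufaf5 and Ndufb7 are on these lists, with differences of -0.40, -0.36 and -0.32. This share is near that of the member windows. Ndufa1, Ndufa4l2, Cox7a2l and Ndufv3, with 0.60, 0.57, 0.41 and 0.35, are not on them. Nor are Ndufa5 and Ndufaf6, with -0.37 and -0.36, and a gene without a window cannot be. A match is a description of letters and shows neither binding nor use of the site.

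Complex I, the NADH dehydrogenase, had 42 members, of which 19 had a difference above 0 and 23 below, with a median of -0.01. Its 6 measured core subunits, most of which carry the flavin or an iron-sulphur cluster, had a median difference of -0.11. They ran from -0.21 (Ndufv2) to 0.08 (Ndufv1). The 28 accessory subunits, which surround and stabilise the core, spread widest of all the groups, from -0.40 to 0.60 with a median of 0.07. The 8 assembly factors, which are not part of the finished complex, had a median of -0.17, and 7 of the 8 were below 0. By limma, 0 of the 42 passed over all genes, and 7 had an unadjusted p under 0.05, 2 higher and 5 lower in KO.

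Ndufa1, an X-linked subunit of the membrane arm, read 10.24, 10.13, 10.04, 9.57 and 10.35 in KO, against 8.46, 9.68, 9.78, 9.60 and 9.81 in WT. All KO arrays but KO 21 lay above every WT array, and WT 1 lay more than 1 log2 unit below the other WT arrays. The difference was 0.60 (SE 0.25; limma adjusted p = 0.324; exact permutation p = 0.0397, two-sided), and without WT 1 it was 0.35. Ndufv3, an accessory subunit beside the NADH-binding core, read 10.63, 10.26, 10.11, 9.97 and 10.30 in KO, against 9.70, 10.14, 10.11, 9.71 and 9.84 in WT. The groups overlapped, with WT 2 above KO 10 and KO 21, and the difference was 0.35 (SE 0.16; limma adjusted p = 0.356).

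Ndufs4, an accessory subunit whose loss in mice is a model of Leigh syndrome, had the most negative difference of the 90 members. It read 9.39, 9.44, 9.33, 9.12 and 9.79 in KO, against 9.63, 9.73, 9.85, 9.79 and 10.03 in WT. Every KO array but KO 23 lay below every WT array. The difference was -0.40 (SE 0.15; limma adjusted p = 0.235; exact permutation p = 0.0238, two-sided). Its 3 other probe sets differed by -0.29, -0.08 and 0.19, so the direction was not shared by all 4. The set of opposite sign was dim, at 4.20 in KO and 4.01 in WT (SE 0.28), near the highest background reading of 3.84. The set with -0.29 read 4.99 and 5.27. The set with -0.08 was the brightest of the 3, at 7.94 in KO and 8.02 in WT. With the mean of the probe sets standing for the gene, the difference of Ndufs4 was -0.14.

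Ndufa5, a subunit of the matrix arm, read 11.23, 10.58, 10.59, 10.70 and 11.02 in KO, against 11.42, 11.27, 11.11, 10.93 and 11.23 in WT. Ndufb7, a membrane-arm subunit facing the intermembrane space, read 12.22, 11.95, 11.87, 11.67 and 12.19 in KO, against 12.42, 12.35, 12.18, 12.20 and 12.35 in WT. For both genes KO 9, KO 10 and KO 21 lay below every WT array, while KO 8 and KO 23 lay within the WT range. The differences were -0.37 (SE 0.16) for Ndufa5 and -0.32 (SE 0.14) for Ndufb7, with limma adjusted p-values of 0.345 and 0.342. Their other probe sets differed by -0.17 and -0.30.

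Among the assembly factors, Ndufaf5, a methyltransferase-family protein that hydroxylates a core subunit, read 7.47, 7.22, 6.72, 7.03 and 7.41 in KO, against 7.57, 7.60, 7.63, 7.48 and 7.38 in WT. Again KO 9, KO 10 and KO 21 were below every WT array and KO 8 and KO 23 were not. The difference was -0.36 (SE 0.16; limma adjusted p = 0.342). Ndufaf6, another assembly factor, read 4.92, 4.33, 4.63, 4.77 and 4.89 in KO, against 4.73, 4.99, 5.19, 5.05 and 5.37 in WT. Here KO 9 and KO 10 alone lay below every WT array, and the difference was also -0.36 (SE 0.16; limma adjusted p = 0.358).

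**Figure D2:**
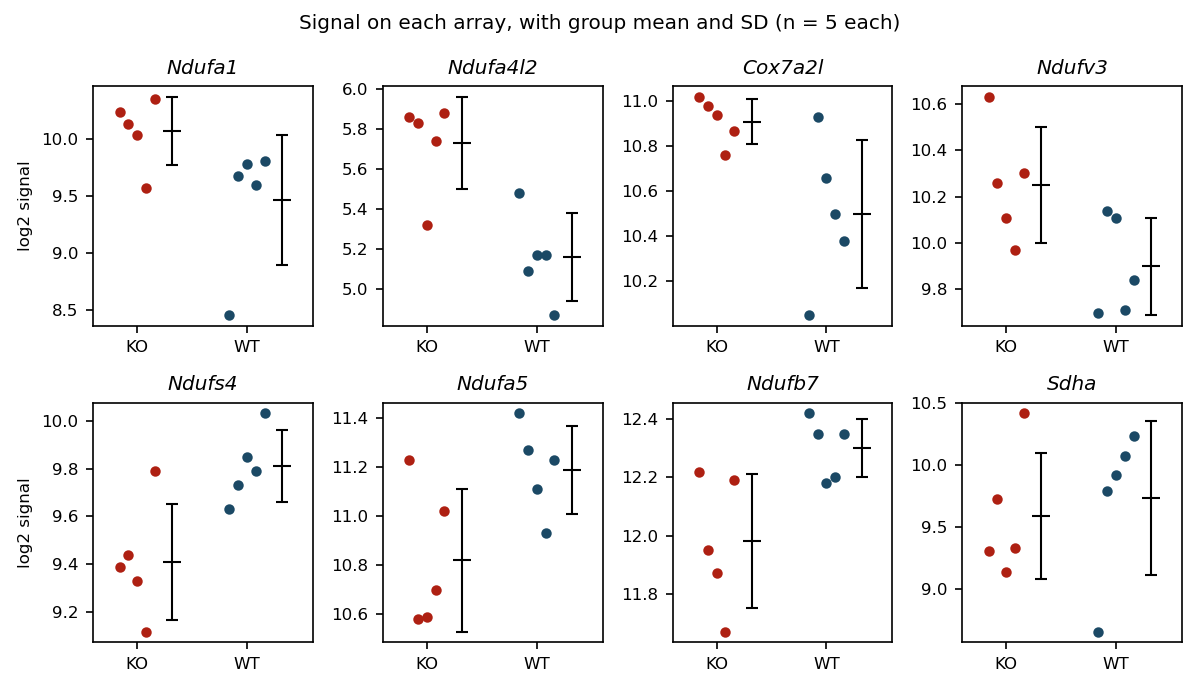
Log2 signal on each array for 8 genes (points; KO in red, WT in blue; each panel has its own axis, which does not start at 0), with the group mean and SD (black; n = 5 each). The groups overlap in every panel. WT 1, the leftmost WT point, is the lowest WT array for Ndufa1 (8.46), Cox7a2l (10.05), Ndufv3 (9.70), Ndufs4 (9.63) and Sdha (8.66). It is the highest for Ndufa4l2, Ndufa5 and Ndufb7.

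Complex II, succinate dehydrogenase, is shared by the respiratory chain and the tricarboxylic acid cycle. All 4 of its genes had a difference below 0, with a median of -0.18, and 0 of 4 passed, also 0 at an unadjusted limma p under 0.05. Sdha, the flavoprotein that oxidises succinate, read 9.31, 9.73, 9.14, 9.33 and 10.42 in KO, against 8.66, 9.79, 9.92, 10.08 and 10.24 in WT. The highest array was KO 23 and the lowest was WT 1, although the mean difference was -0.15 (SE 0.31; limma adjusted p = 0.925), and it was -0.42 without WT 1. Sdhb, the iron-sulphur subunit, differed by -0.20 (SE 0.15), the membrane anchor Sdhc by -0.23 (SE 0.16) and the other anchor, Sdhd, by -0.02 (SE 0.19), with limma adjusted p-values of 0.680, 0.641 and 0.984. A second Sdhc probe set differed by 0.19, opposite in sign.

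Complex III, the cytochrome bc1 complex, had 8 members with a median difference of 0.04, from -0.13 (Uqcr10) to 0.25 (Uqcrb), and 0 passed, adjusted or not. Uqcrb, which binds ubiquinone in the complex, read 10.45, 11.04, 10.83, 10.85 and 11.25 in KO, against 9.54, 10.74, 11.19, 10.79 and 10.94 in WT. WT 1 was the lowest of all 10 arrays, and the difference of 0.25 (SE 0.27; limma adjusted p = 0.819) was -0.03 without it. A second Uqcrb probe set differed by -0.24, opposite in sign. Uqcrc1 and Uqcrc2, the core proteins, differed by 0.02 and -0.09, and Uqcrfs1, the Rieske iron-sulphur protein, by 0.06.

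Complex IV, cytochrome c oxidase, had 19 members with a median difference of 0.15, 15 above 0 and 4 below. By limma, 0 passed over all genes, and 2, both higher in KO, had an unadjusted p under 0.05. The member with the smallest adjusted p of all 90 was Ndufa4l2, a paralogue of the complex IV subunit Ndufa4 and known as a hypoxia-induced gene. It read 5.86, 5.83, 5.32, 5.74 and 5.88 in KO, against 5.48, 5.09, 5.17, 5.17 and 4.87 in WT. Only KO 10 lay within the WT range, below WT 1. The difference was 0.57 (SE 0.16), a 1.49-fold higher mean, with a limma adjusted p of 0.0835 and an exact permutation p of 0.0159 (two-sided, where 0.00794 is the smallest that 5 against 5 arrays allow). Without WT 1 it was 0.65 and passed the test, with a limma adjusted p of 0.0359. Ndufa4 itself differed by 0.26 (SE 0.17; limma adjusted p = 0.615).

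Cox7a2l, which takes part in joining complexes III and IV into supercomplexes, read 11.02, 10.98, 10.94, 10.76 and 10.87 in KO, against 10.05, 10.93, 10.66, 10.50 and 10.38 in WT. KO 21 and KO 23 lay below WT 2 and the other KO arrays above all WT arrays. The difference was 0.41 (SE 0.16; limma adjusted p = 0.274; exact permutation p = 0.0238, two-sided), and its other 2 probe sets differed by 0.47 and 0.46.

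Several complex IV subunits exist as a widely expressed form and a tissue-restricted one, and both forms were compared. The widely expressed forms Cox4i1, Cox6a1, Cox6b1 and Cox7a2 differed by 0.21, 0.22, 0.25 and 0.20, with limma adjusted p-values of 0.821, 0.822, 0.628 and 0.851. Without WT 1 the same differences were 0.00, -0.01, 0.11 and -0.05, and that of Ndufa4 was 0.12. Of their restricted counterparts, Cox4i2, the lung form, differed by -0.05, Cox6a2, a heart and muscle form, by -0.09, Cox6b2, a testis form, by -0.17, and Cox7a1, a heart and muscle form, by 0.16. Cox8a, the widely expressed form of its set, differed by -0.07, against 0.00 for the muscle form Cox8b and 0.04 for the testis form Cox8c. Cox7b2, the testis form of Cox7b, differed by 0.12, with mean signals of 1.99 in KO and 1.87 in WT, under the background reading. Across the 11 widely expressed members of complex IV the median difference was 0.21, with 10 above 0, and across the 8 restricted members, Ndufa4l2 included, it was 0.02. This order rested on WT 1: without it the median was -0.01 over the 11 widely expressed members, with 5 above 0, and 0.15 over the 8 restricted ones, with 7 above 0. Markers of testis germ cells averaged 4.26 to 4.68 in KO and 4.26 to 4.82 in WT, with 0 of 6 past the test.

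ATP synthase had 17 members with a median difference of 0.11, 14 above 0 and 3 below, and 0 passed, adjusted or not. Without WT 1 the median was -0.03, with 7 above 0 and 10 below. The 5 members of F1, the catalytic head with its central stalk, had a median of 0.02. Among them the catalytic subunit Atp5b read 11.39, 11.51, 11.02, 10.93 and 11.84 in KO, against 9.86, 11.38, 11.45, 11.61 and 11.28 in WT. WT 1 was again the lowest array, and the difference was 0.22 (SE 0.31; limma adjusted p = 0.874), or -0.09 without WT 1. The 12 members of the membrane part, the peripheral stalk and associated proteins had a median of 0.11. Atp5l, subunit g of the membrane part, had the largest difference of the complex, 0.33 (SE 0.17; limma adjusted p = 0.471; exact permutation p = 0.119, two-sided). It read 9.13, 8.50, 8.56, 8.41 and 8.99 in KO, against 8.07, 8.52, 8.57, 8.30 and 8.49 in WT, so that KO 8 and KO 23 alone lay above the WT range. The 3 genes that encode the same subunit c of the proton-turning ring, Atp5g1, Atp5g2 and Atp5g3, differed by 0.12, 0.09 and 0.14, and without WT 1 by 0.04, -0.03 and -0.07.

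The members varied more between arrays of one genotype than between genotypes, and they varied together. The median deviation of the 90 members from their 10-array means was 0.26 on KO 8, -0.02 on KO 9, -0.11 on KO 10, -0.33 on KO 21 and 0.28 on KO 23, against -0.38 on WT 1, 0.17 on WT 2, 0.05 on WT 3, -0.05 on WT 4 and 0.10 on WT 5. The group means of these values were 0.02 ± 0.26 in KO and -0.02 ± 0.21 in WT (SD, n = 5 each), while the median over all genes stayed between -0.07 and 0.07 on every array. Over all members KO 21 and WT 1 were thus low and KO 8 and KO 23 high, as the plot of deviations by array shows. KO 21 was the lowest KO array for 67 of the 90 members (74.4%), against 33.7% of all genes, and WT 1 was the lowest WT array for 59 (65.6%), against 28.0%. KO 8 or KO 23 was the highest KO array for 85 members (94.4%), against 57.9% of all genes. These shares compare arrays within a genotype and members are not replicates, so they carry no test. The members were also brighter, with a median mean signal of 9.48 in KO, against 5.69 over all genes. Neither the low KO 21 nor the low WT 1 was particular to the members. KO 21 was also the lowest KO array for most tricarboxylic acid cycle genes and most porin, carrier and import genes, which are read below. Exceptions included Cs, Idh2, Hspd1 and Opa1. Likewise WT 1 was the lowest WT array for most genes of both lists, with exceptions that included Idh2 and Opa1.

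**Figure D3:**
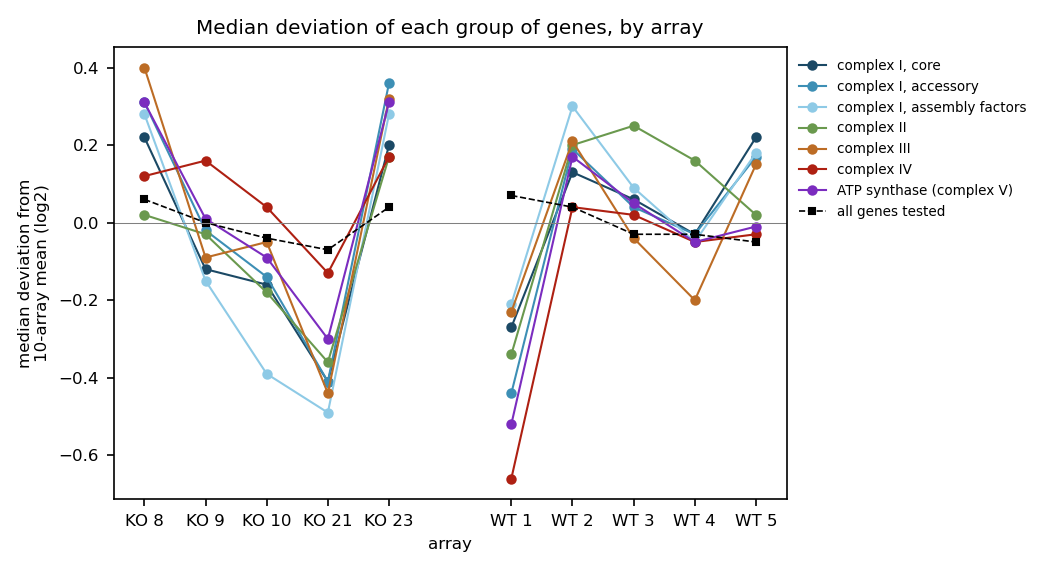
Median deviation of each complex from its 10-array mean in log2 signal (y axis) on each of the 5 KO and 5 WT arrays (x axis); black squares are all genes tested, and lines only join the points of one gene group. Every complex is below 0 on KO 21 and WT 1 and above 0 on KO 8 and KO 23, where complex II is at 0.02 on KO 8, and complex IV is lowest on WT 1, at -0.66.

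The complexes shared this pattern to different degrees. On KO 21 the median deviation was -0.41 for the core and accessory subunits of complex I, -0.49 for its assembly factors, -0.36 for complex II, -0.44 for complex III, -0.30 for ATP synthase and -0.13 for complex IV. On WT 1 complex IV was the lowest group at -0.66, followed by ATP synthase at -0.52. Within complex IV the 11 widely expressed members had a median of -0.70 on WT 1, while the 8 tissue-restricted ones had 0.47, the highest of the 10 arrays. WT 1 was also the highest WT array for 36.7% of all genes. The restricted members were the dim ones, so signal level and isoform type cannot be told apart here. After the group means were taken out, pairs of members had a median correlation of 0.58 over the 10 arrays (quartiles 0.17 and 0.80), while pairs of all genes had 0.03. By group the median was 0.72 for the complex I core, 0.71 for accessory subunits, 0.63 for assembly factors, 0.40 for complex II, 0.69 for complex III and 0.73 for ATP synthase. In complex IV it was -0.07 over all 19 members and 0.81 over the 11 widely expressed ones. Without WT 1 it was 0.62 over all members and 0.57 over those 11. These correlations describe 10 arrays that share their RNA between genes, and they rest partly on single arrays.

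Other readings were set beside this order. The mean of the proliferation markers was 8.74, 7.84, 7.73, 7.67 and 8.56 on KO 8, KO 9, KO 10, KO 21 and KO 23, so the arrays with high respiratory genes were the higher ones, against 8.83, 9.05, 8.57, 8.95 and 9.18 on WT 1 to WT 5, where WT 1 was not low. The difference between the 3′ and 5′ Gapdh probe sets, a reading of RNA integrity, was 1.63, 1.96, 2.10, 2.10 and 1.72 in KO, against 1.72, 1.80, 2.01, 1.92 and 2.0 in WT. Among the KO arrays it was smallest on KO 8 and KO 23, where the members were high, and among the WT arrays it was smallest on WT 1, where they were low. The poly-A spike-in controls averaged 11.11, 10.11, 10.40, 9.87 and 10.06 in KO, against 11.40, 10.76, 10.20, 10.20 and 10.05 in WT. In WT they were highest on WT 1, where the members were low. Among the KO arrays they followed the members in part. They were highest on KO 8 and lowest on KO 21, as the members were high and low there, but low on KO 23, where the members were high. The part of these readings in the pattern was not tested.

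The rest of the oxidative machinery was read from lists drawn up apart from the symbol rule. Of 39 measured assembly factors outside it, 1 was higher in KO and 0 lower, a share near the 2.65% called over all genes. At an unadjusted limma p under 0.05, 1 was higher and 3 were lower. The called gene was Acad9, an acyl-CoA dehydrogenase that also serves complex I assembly. It read 8.27, 8.15, 8.24, 8.46 and 8.13 in KO, against 7.54, 7.43, 7.84, 7.44 and 7.37 in WT. Every KO array lay above every WT array, and Acad9 rose by 0.72 (SE 0.13), or 1.65-fold, with a limma adjusted p of 0.00985. The median of its list was -0.01, and the 8 complex I assembly factors among the members had a median of -0.17, so Acad9 did not share the sign of most of them.

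No member of 4 further lists passed the test. They were cytochrome c and the electron carriers (0 of 17, 2 lower at an unadjusted p under 0.05, median -0.06), the regulators of mitochondrial biogenesis (0 of 22, 1 higher unadjusted, median 0.00), the tricarboxylic acid cycle with pyruvate dehydrogenase (0 of 21, 2 higher unadjusted, median -0.03), and the porins, carriers and import proteins (0 of 21, 3 lower unadjusted, median -0.20). Of the 13 subunits encoded in mitochondrial DNA, 1 was measured. This gene, ND5, read 11.67, 12.15, 12.19, 12.15 and 11.88 in KO, against 11.72, 11.93, 12.29, 12.02 and 12.01 in WT, with a difference of 0.01 (SE 0.15; limma adjusted p = 0.991). Its KO order ran against that of the nuclear members: KO 8 and KO 23, where those were high, gave the lowest 2 KO values.

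Hypoxia response genes were included because Ndufa4l2 and Cox4i2 are known to respond to low oxygen. Of 16 measured, 3 passed as higher in KO and 0 as lower, against 2.30% and 0.346% of all genes. At an unadjusted limma p under 0.05, 6 were higher and 0 lower. The list median was 0.22, with 13 above 0 and 3 below, among them Car9 (-0.40) and Vegfa (-0.18). Egln3, a prolyl hydroxylase that marks the hypoxia-inducible factor for destruction, rose 2.78-fold (limma adjusted p = 0.0247), Hk2, a hexokinase, rose 1.86-fold (0.0140) and Ankrd37 rose 1.78-fold (0.0176). Egln3 read 6.18, 6.33, 5.92, 6.01 and 6.90 in KO, against 3.71, 4.63, 5.51, 5.45 and 4.68 in WT, with no overlap and with WT 1 lowest. All 3 lost their call when certain single arrays were left out: Egln3 without KO 9, KO 23, WT 2 or WT 5 (limma adjusted p = 0.076, 0.0516, 0.0586 and 0.0522), Hk2 without KO 10 (0.0503) and Ankrd37 without WT 4 (0.053). The plot of gene lists sets the complexes beside these lists and beside the differentiation markers, whose median difference was 2.35.

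**Figure D4:**
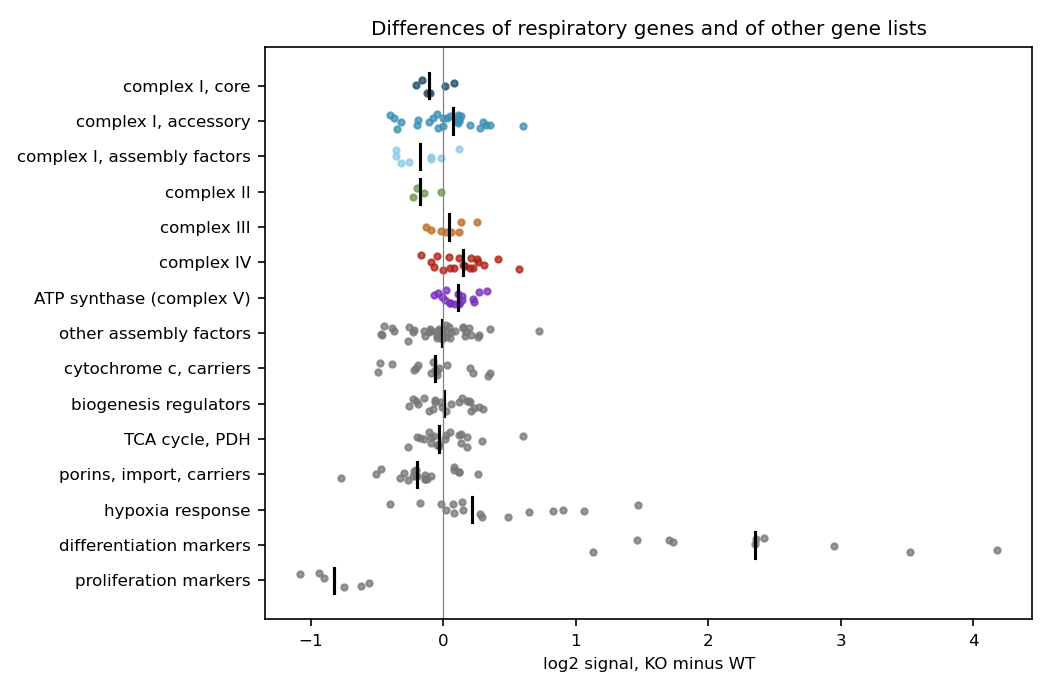
Difference in log2 signal, KO minus WT, of each gene (points; 5 KO and 5 WT arrays) in the complexes (coloured) and in other lists (grey), with the list median (black bar). The complexes lie between -0.40 and 0.60, while the differentiation markers lie between 1.13 and 4.18 and the proliferation markers between -1.08 and -0.56.

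Single arrays decided some of the group medians. Without WT 1 the median difference of the 90 members was -0.04, with 30 above 0, and without KO 21 it was 0.12, with 66 above 0. When each array was left out in turn, the medians of the complex I accessory subunits (-0.07 to 0.15), complex III (-0.05 to 0.15) and ATP synthase (-0.03 to 0.19) took both signs. That of all 19 complex IV members ran from 0.10 to 0.18, although that of its 11 widely expressed members was -0.01 without WT 1. The medians of the complex I core, the assembly factors and complex II stayed below 0, between -0.19 and -0.02, -0.30 and -0.07, and -0.25 and -0.09. The other probe sets of the members, 89 in all, were read too: 0 passed, and 34 of them, in 26 members, had the opposite sign to the probe set that stood for the gene.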

How the data were processed

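Transcripts were measured in 5 KO and 5 WT samples of primary keratinocytes on 1-colour Affymetrix Mouse Genome 430 2.0 arrays from 6 µg of total RNA each. Per the submitters' processing notes, the authors used RMA to make the deposited log2 signals. This method corrects the background, equalises the distributions of the arrays and combines the probes of a set, so a shift common to most genes cannot be seen and differences near background are compressed. Its version is not given in the sources used here. Array medians lay between 5.02 and 5.17, and the number of arrays limits the precision.

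Of 45101 probe sets, 64 were controls, 34945 had 1 gene, 932 several and 9160 none in the probe table. Gene identifiers were updated through the gene table for 34741. The brightest probe set stood for a gene. No further normalization, floor or filter was applied. Differences, KO minus WT, were tested with limma 3.58.1 in R 4.3.3 (lmFit, eBayes, two-sided) and adjusted by Benjamini-Hochberg over 18193 genes. Single values were compared by an exact permutation test over 252 assignments of the arrays. Its p-values are printed for some named genes only. They are not adjusted for the number of genes or for naming genes by the size of their difference. Background, 2.08 to 3.84, was read from 3 Y-linked genes on the 6 arrays that lack their signal. The limma step was tested on simulated data.

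The members, lists, named genes and tests were chosen with earlier results of these data known. The rule for naming took every called member, the 5 members with the largest difference in each direction above background, the isoform sets of complex IV, subunit c and Ndufa4, the 4 genes of complex II, the member with the smallest adjusted p of each complex, and called genes of the other lists. Members named outside it (Ndufv1, Ndufv2, Uqcr10, Uqcr11, Uqcrc1, Uqcrc2, Uqcrfs1, Atp5b and Ndufb4) were chosen after their values were seen, for their role or position. From the other lists, Cs, Idh2, Hspd1, Opa1, Car9, Vegfa and the dim muscle markers were also named for their values. No sample numbers are shared between the groups, so nothing was paired. Another 20 settings were run.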

Additional observations from a re-analysis of the deposited data

Results flagged for a closer look

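In 86 groups of 5 values, from the named genes and the medians of the complexes, 13 held an array whose gap to its nearest neighbour was more than 0.71 of the group's range. Chance gives this in about 1 of 20 groups.

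Of these, 10 concerned WT 1. It was far below the other WT arrays for Atp5g3 (9.66), Cox4i1 (9.70), Cox7a2 (9.71), Ndufa1 (8.46), Ndufa4 (10.42), Sdha (8.66), Sdhd (8.24) and Uqcrb (9.54), and for the median deviation of complex IV (-0.66). It was far above them for Cox4i2 (6.31), the lung form of subunit 4. Over all 90 members WT 1 stood apart from the other WT arrays in 22 (24.4%), 21 of them low and 1 high, against 8.04% of all genes.

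Among the KO arrays, KO 21 was far below the others for Cox4i1 (10.16), and KO 10 was far below them for Ndufa4l2 (5.32). KO 23 was far above the others for Ankrd37 (6.77), a hypoxia response gene.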

How the results depend on the processing

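The result that 0 of 90 members passed held in all settings but array weights and leaving out WT 1. With array weights, which gave WT 1 a weight of 0.227, limma called 877 genes higher and 561 lower, and among the members 1 was higher, Ndufa4l2 (0.55, limma adjusted p = 0.0274), and 2 were lower, Ndufaf6 (-0.51, 0.0383) and Ndufs4 (-0.43, 0.0427). Leaving out 1 array at a time gave 264 to 419 genes higher and 13 to 107 lower, 0 to 1 members higher and 0 to 0 lower, and 0 to 1 members without overlap in either direction. The fewest genes were called without KO 9 and the most lower ones without KO 23. Ndufa4l2 was the member called, without WT 1. The median difference of the members ran from -0.04 to 0.12 and changed sign. Centring each array on its median left 40 genes lower, and quantile normalization left 1 member without overlap, lower in KO. Without WT 1, WT 2 and KO 8 together, 2 members lay higher and 2 lower without overlap, the median was -0.08, and Cox6b2 reversed to 0.12. There Acad9 (0.69), Ankrd37 (0.81) and Egln3 (1.08) no longer passed, with fewer arrays in the fit.

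With the array number as a covariate, which the genotype follows closely, 0 genes were called higher and 0 lower, and the median standard error of the members was 0.37. The median was -0.21 for the members, -0.22 for complex I accessory subunits and -0.11 for complex IV. Differences reversed to -0.41 for Atp5g3, -0.71 for Cox4i1, -0.91 for Cox6a1, 0.49 for Cox6a2, -0.12 for Cox6b1, 0.38 for Cox6b2, -0.46 for Cox7a2, -0.24 for Ndufa1, -0.11 for Ndufa4 and -0.40 for Uqcrb. Standing each gene by its probe set of largest interquartile range reversed Ndufs4 to 0.19 and Sdhc to 0.19. In that setting Uqcrb (-0.24) and Cox7a2 (-0.01) also changed sign. That set of Ndufs4 was dim, at 4.20 in KO and 4.01 in WT. The cause of these reversals was not tested. No paired analysis was possible because the groups share no sample numbers. Dim probe sets (Ndufb4, Cox7a1, Cox7b2) limit what can be read of those genes.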
